A study of Mus musculus with 7 samples.

Results

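The genes of glycolysis and pyruvate metabolism were followed in Beta-TC6 cells, a mouse line grown from an insulin-secreting beta cell tumour, with and without the inflammatory cytokine interleukin-1 beta (IL1B). The set was a fixed list of 37 gene symbols, from the glucose and lactate transporters to the pyruvate dehydrogenase kinases and the redox shuttles, of 23329 symbols in the count table. All 37 had a row, and all 37 passed the filter on low counts that left 12480 genes to test. PolyA RNA was sequenced from 7 libraries, all of wild-type genotype, 4 given vehicle (labelled WT-Veh) and 3 given IL1B (labelled WT-IL1B). The culture medium for both groups was DMEM containing 15% fetal bovine serum, and all cells received a pulse of 10 µM forskolin for 1 h to synchronise them, so the vehicle libraries carry that treatment too. The dose and duration of IL1B and the time of harvest were not given in the sources used here. Beta-TC6 is a single tumour line, and the labels do not say whether libraries of a group came from separate cultures, so the p-values measure the spread between these libraries, which may be technical. The series title ties IL1B to NF-kB, the transcription factor family that the IL1 receptor activates, and to circadian enhancers in beta cell function.

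Beta cells sense glucose by burning it. Glucose enters through facilitative transporters, is phosphorylated, and runs through glycolysis to pyruvate, most of which enters mitochondria and raises ATP, which closes potassium channels and releases insulin. Mature beta cells hold down the high-affinity hexokinases, lactate dehydrogenase A and the monocarboxylate transporters, so that insulin release follows blood glucose and does not answer lactate or pyruvate. Electrons of cytosolic NADH reach mitochondria through the glycerol phosphate and malate-aspartate shuttles, because little lactate is made. Tumour-derived beta cell lines such as Beta-TC6 are known for higher hexokinase expression than islet beta cells.

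Total counts were 5335607 to 7513934 in the vehicle libraries and 6007723 to 6969745 in the IL1B libraries, and the 37 genes took 0.54% to 0.635% of the counts in each. Expression is given as CPM, a gene's counts relative to all counts of its library in tested genes after TMM scaling, and fold changes with their standard errors (SE) and adjusted p-values come from edgeR's quasi-likelihood test of IL1B against vehicle, adjusted over the 12480 genes. The labelled cell type was supported by its markers, since all 15 beta cell markers were expressed and summed to 3.87e+04 to 4.45e+04 CPM with vehicle and 4.24e+04 to 4.36e+04 CPM with IL1B. Hormone genes of other islet cells were expressed as well, with vehicle means of 311.5 CPM for Gcg and 287.7 CPM for Sst, so the markers were not those of beta cells alone. The 10 leukocyte markers together had 23 to 41 counts in each library, with Aif1 and Tyrobp at 0. The 10 exocrine and duct markers together had 118 to 183 counts in each library. Among them, Prss1, Cpa1 and Amy2a5 were at 0, and Spp1 had a vehicle mean of 15.83 CPM. The 10 stromal and endothelial markers together had 45 to 78 counts in each library. In chi-square tests of counts, pairs with vehicle library 2 differed by 3.89 to 4.93 per degree of freedom and the other vehicle pairs by 1.53 to 1.6, and pairs with IL1B library 2 by 2.9 and 4.21 against 1.73 for the remaining IL1B pair, so both of these libraries stood apart. For vehicle library 2, Spearman's rho across genes between transcript length and its deviation from the group mean was -0.54, where the other vehicle libraries had 0.21 to 0.3, and its share of counts in ribosomal protein genes was 4.15%, where theirs was 3.5% to 3.6%. Without both libraries, 1171 genes rose in place of 968 and 676 fell in place of 406. The results below name either library where leaving it out changed a call.

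Expression of 3 of the 37 genes rose with IL1B and that of 1 fell. Those that rose were Hk1, which encodes the high-affinity hexokinase 1, Pfkfb3, which encodes an enzyme that makes the allosteric activator of phosphofructokinase-1, and Eno2, the neuron-type enolase. The gene that fell was Gpd2, the mitochondrial arm of the glycerol phosphate shuttle. In bulk RNA, fewer cells expressing a gene and less RNA per cell cannot be told apart. The other 33 did not pass the adjusted threshold of 0.05. The 4 called genes were 10.8% of the 37, and 11.0% of all tested genes were called (7.76% higher and 3.25% lower), so the share of called genes was near the background. The median log2 fold change was -0.03 over the 37 genes and -0.01 over all tested genes, with 14 of the 37 positive and 23 negative. The libraries of the 2 groups did not overlap for 4 genes that were higher with IL1B (Hk1, Pfkfb3, Eno2, Pfkm) and 4 that were lower (Gpd2, Gpd1, Slc16a1, Mdh1), against a background of 21.0% of all tested genes without overlap (12.1% higher and 8.83% lower). The same 4 genes were called by DESeq2, which called 8.90% of all genes (6.67% higher and 2.23% lower), and by limma-voom, which called 10.8% (7.69% higher and 3.09% lower). Before adjustment, 9 of the 37 had a p under 0.05, where 22.6% of all tested genes did.

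**Figure D1:**
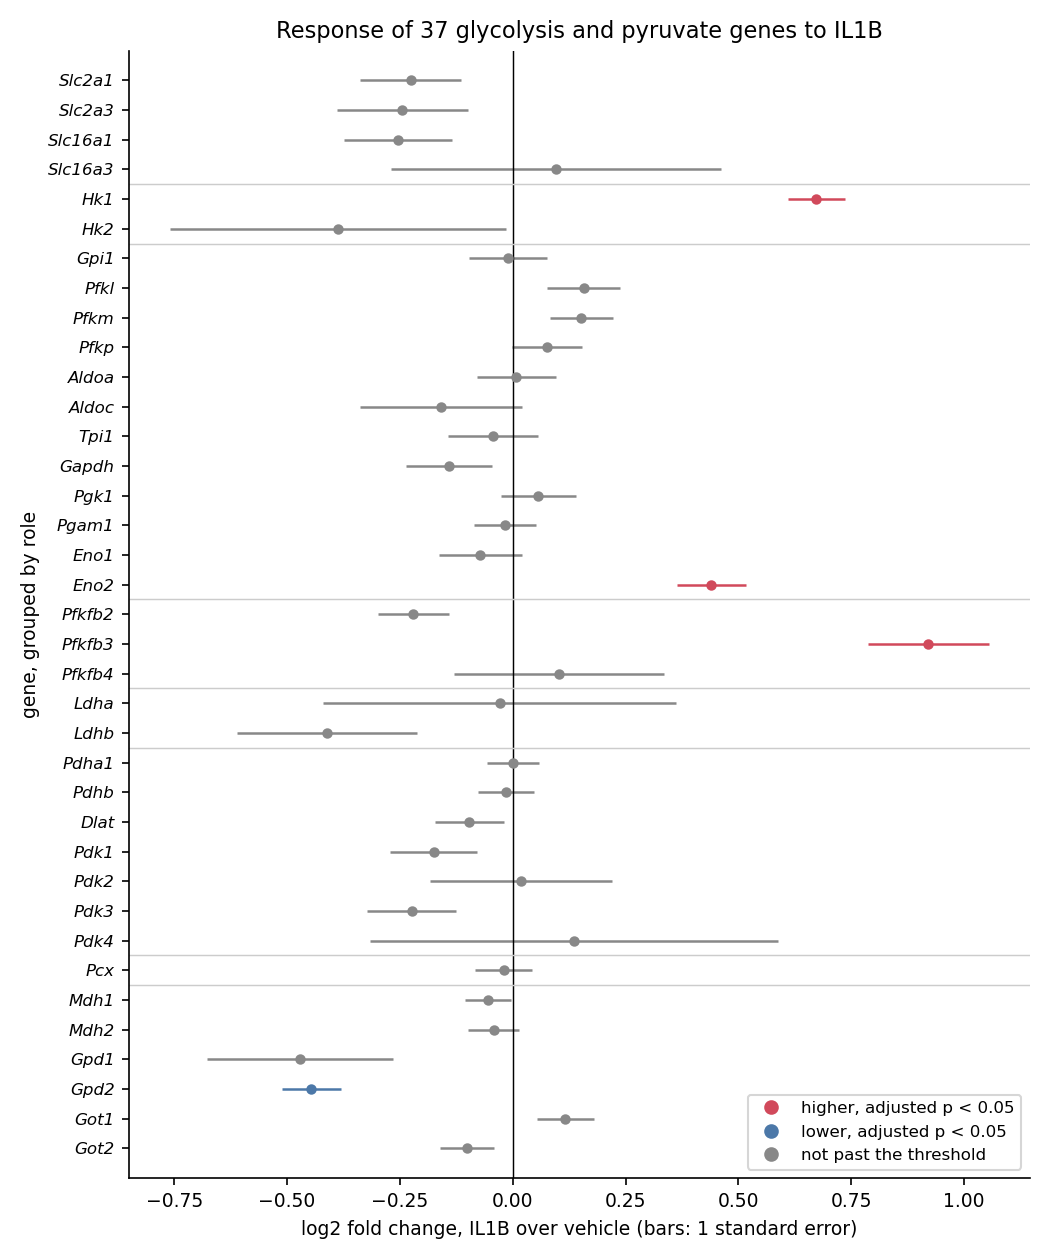
Log2 fold change of IL1B over vehicle (x axis) for the 37 genes, ordered by role from transporters at the top to shuttle enzymes at the bottom, with bars of 1 standard error from the edgeR fit. Hk1, Eno2 and Pfkfb3 lie to the right and Gpd2 to the left of 0 past the adjusted threshold, and the widest bars belong to Pdk4, Ldha, Hk2 and Slc16a3.

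The promoter windows of the 4 called genes are shown because they are the members whose transcript level differed between the groups. Each is a RefSeq window on GRCm38.p6 from 250 bases before to 50 bases after an annotated start, printed 5′ to 3′ on the gene's strand. Capitals mark matches on either strand to an NF-kB-type motif with a fixed end (GGG, any 2 bases, TTTCC), to the E-box CACGTG that circadian CLOCK and BMAL1 recognise, and to ACGTG and GCGTG, the core letters of hypoxia-response elements. Every CACGTG also holds ACGTG on both strands.
Hk1 window 1, chr10:62340372-62340671, minus strand: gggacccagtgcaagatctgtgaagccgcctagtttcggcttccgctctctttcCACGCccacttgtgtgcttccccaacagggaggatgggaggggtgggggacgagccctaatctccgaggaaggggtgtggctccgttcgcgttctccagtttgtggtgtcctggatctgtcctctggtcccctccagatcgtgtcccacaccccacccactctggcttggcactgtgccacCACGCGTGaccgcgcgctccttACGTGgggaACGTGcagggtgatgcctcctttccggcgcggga
Hk1 window 2, chr10:62379859-62380158, minus strand: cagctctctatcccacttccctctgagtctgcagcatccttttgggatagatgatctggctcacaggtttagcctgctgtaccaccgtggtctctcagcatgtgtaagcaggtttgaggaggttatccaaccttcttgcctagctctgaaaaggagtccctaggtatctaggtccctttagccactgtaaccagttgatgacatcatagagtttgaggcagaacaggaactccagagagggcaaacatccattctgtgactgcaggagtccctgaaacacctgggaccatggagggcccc
Pfkfb3 window 1, chr2:11502041-11502340, minus strand: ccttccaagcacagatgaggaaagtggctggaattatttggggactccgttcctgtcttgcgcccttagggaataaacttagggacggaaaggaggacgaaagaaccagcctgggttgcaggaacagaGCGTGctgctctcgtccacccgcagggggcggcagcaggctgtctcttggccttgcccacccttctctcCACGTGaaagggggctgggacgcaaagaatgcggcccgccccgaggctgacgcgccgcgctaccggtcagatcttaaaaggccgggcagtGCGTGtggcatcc
Pfkfb3 window 2, chr2:11553880-11554179, minus strand: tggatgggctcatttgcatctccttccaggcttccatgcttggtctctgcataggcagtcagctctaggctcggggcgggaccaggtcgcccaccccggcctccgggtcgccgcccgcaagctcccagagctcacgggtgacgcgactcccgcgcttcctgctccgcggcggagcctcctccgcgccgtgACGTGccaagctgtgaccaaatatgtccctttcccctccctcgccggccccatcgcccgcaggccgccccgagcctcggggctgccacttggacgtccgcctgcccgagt
Eno2, chr6:124769624-124769923, minus strand: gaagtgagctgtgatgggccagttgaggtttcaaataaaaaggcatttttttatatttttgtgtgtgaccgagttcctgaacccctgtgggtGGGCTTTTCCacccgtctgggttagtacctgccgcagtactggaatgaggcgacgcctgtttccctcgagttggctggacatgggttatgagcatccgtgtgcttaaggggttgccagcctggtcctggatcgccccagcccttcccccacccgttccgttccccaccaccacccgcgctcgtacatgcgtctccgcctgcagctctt
Gpd2 window 1, chr2:57237428-57237727, plus strand: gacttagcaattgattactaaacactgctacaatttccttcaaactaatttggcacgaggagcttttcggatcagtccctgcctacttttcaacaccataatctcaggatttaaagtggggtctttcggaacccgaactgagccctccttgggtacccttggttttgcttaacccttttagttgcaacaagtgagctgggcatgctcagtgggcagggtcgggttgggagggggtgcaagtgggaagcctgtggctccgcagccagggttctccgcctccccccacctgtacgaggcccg
Gpd2 window 2, chr2:57238132-57238431, plus strand: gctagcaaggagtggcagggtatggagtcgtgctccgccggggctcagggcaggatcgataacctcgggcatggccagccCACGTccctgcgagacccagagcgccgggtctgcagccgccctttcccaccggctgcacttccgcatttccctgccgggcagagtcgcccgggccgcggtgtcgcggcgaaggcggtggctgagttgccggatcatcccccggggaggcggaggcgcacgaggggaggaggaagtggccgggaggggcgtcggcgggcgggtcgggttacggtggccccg
The first Hk1 window held 2 matches to ACGTG and 3 to GCGTG, while the second, at the far upstream start, held none of the marked motifs. The first Pfkfb3 window held the only E-box among the 7 windows and 2 matches to GCGTG. The Eno2 window held the only match to the fixed-end NF-kB motif. Windows were found for 35 of the 37 genes, 52 windows in all, and 2 of the 52 held the fixed-end NF-kB motif (Eno2 and Dlat, which encodes a pyruvate dehydrogenase subunit), against 1.63% of all 32851 windows. CACGTG was in 7 of the 52 and in 7.15% of all windows, ACGTG in 24 and 19.6%, and GCGTG in 29 and 32.4%. Some windows of a gene overlap, as for Aldoa, Eno1 and Pfkm, so a site can be counted more than once. The looser NF-kB consensus of GGG, any 5 bases and CC, not marked, was in 38 of the 52 and in 50.8% of all windows. The median GC content was 60.8% in the 52 windows and 52.7% in all windows. These are matches of letters, and binding was not measured in these libraries.

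Transport came first along the pathway, and none of its 4 genes passed the test. Slc2a1 encodes the high-affinity glucose transporter GLUT1 and Slc2a3 the transporter GLUT3. Slc2a1 stood at 17.9, 21.9, 20.1 and 21.2 CPM in vehicle libraries 1 to 4 and at 18.4, 17.5 and 15.9 CPM in IL1B libraries 1 to 3 (log2 fold change -0.23, SE 0.11, adjusted p = 0.242). Slc2a3 ranged from 9.84 to 14.9 CPM with vehicle and from 10.3 to 11.5 CPM with IL1B (log2 fold change -0.24, SE 0.14, adjusted p = 0.345). Both groups overlapped for each of these genes. Slc16a1, the monocarboxylate transporter MCT1 that is held very low in islet beta cells, stood at 14.9, 16.4, 17.98 and 18.8 CPM with vehicle and at 13.7, 14.0 and 14.8 CPM with IL1B. Its groups did not overlap, with the highest IL1B library just under the lowest vehicle library, but the log2 fold change of -0.25 (SE 0.12) did not pass the test (adjusted p = 0.214). Slc16a3, the lactate exporter MCT4, is described with Ldha below because of its spread between libraries.

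Hk1 had the smallest p-value of the 37. Its expression was 87.7, 82.5, 82.5 and 93.2 CPM in vehicle libraries 1 to 4 and 136, 142 and 137 CPM in IL1B libraries 1 to 3. Every IL1B library lay above every vehicle library, and the means were 86.5 ± 5.11 (SD, n = 4) and 138 ± 3.15 CPM (SD, n = 3). Expression thus rose 1.6-fold (log2 fold change 0.67, SE 0.06, adjusted p = 2.27e-07, edgeR). Hk1 lies on chromosome 10 at 62268855 to 62379908, minus strand (GRCm38), and its exons overlap 157 bases of the antisense gene Hk1os, which has no row in the table. Whether counting used strand is unknown, and reads of the antisense gene cannot be told apart from those of Hk1. Hk2, the insulin-responsive muscle-type hexokinase, was near the limit of detection, with 96 counts over the 7 libraries (0.874 to 3.53 CPM, log2 fold change -0.39, SE 0.37, adjusted p = 0.603).

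Pfkfb3 had the highest fold change of the 37. The PFKFB enzymes make and remove the sugar bisphosphate that switches phosphofructokinase-1 on, and PFKFB3 is the form with the strongest kinase side. Its expression was 10.5, 10.2, 7.93 and 12.8 CPM in vehicle libraries 1 to 4 and 20.1, 19.0 and 19.7 CPM in IL1B libraries 1 to 3. The groups did not overlap, and the IL1B libraries were close together. Pfkfb3 rose 1.89-fold (log2 fold change 0.92, SE 0.13, adjusted p = 5.9e-05, edgeR). It lies on chromosome 2 at 11471433 to 11554077, minus strand. Pfkfb2, the most abundant PFKFB gene among the 37, stood at 83.3, 68.6, 76.9 and 73.5 CPM with vehicle and at 62.5, 68.7 and 63.9 CPM with IL1B. The groups overlapped by a single pair, the second vehicle and the second IL1B library, and the log2 fold change was -0.22 (SE 0.08, adjusted p = 0.0811). Without the second vehicle library, the adjusted p of Pfkfb2 was 0.0169, so its call depended on that library. Its exons overlap 1262 bases of Gm29427 on the same strand, which has no row in the table. Pfkfb4, the testis-type form, was low at 3.29 to 4.85 CPM (log2 fold change 0.1, SE 0.23, adjusted p = 0.852).

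**Figure D2:**
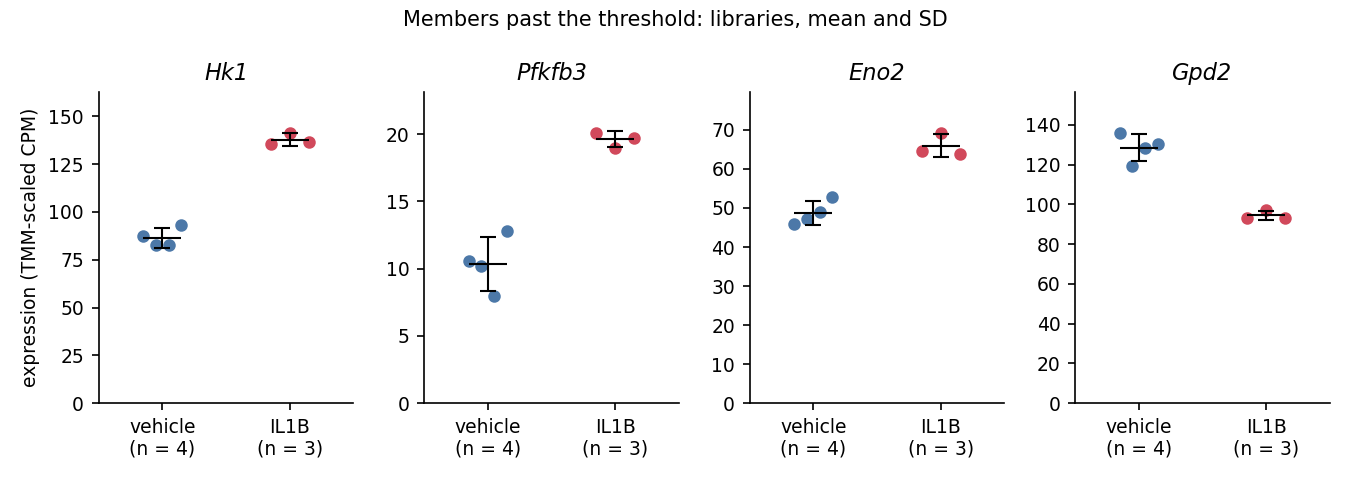
TMM-scaled CPM (y axis, from 0) of Hk1, Pfkfb3, Eno2 and Gpd2 in each vehicle and IL1B library, with the mean and SD of each group. The 3 IL1B libraries lie above all 4 vehicle libraries for Hk1, Pfkfb3 and Eno2, and below them for Gpd2 (92.96 to 97.24 against 119.3 to 136.1 CPM).

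Of the 12 enzymes of the glycolytic core, 1 rose and 11 did not pass the test, and the median log2 fold change was 0.00. Eno2 encodes gamma enolase, which neurons and neuroendocrine cells express beside the general enolase Eno1. It stood at 45.8, 47.3, 49.0 and 52.7 CPM in vehicle libraries 1 to 4 and at 64.7, 69.3 and 63.8 CPM in IL1B libraries 1 to 3. The groups were apart by more than the range within either, and Eno2 rose 1.36-fold (log2 fold change 0.44, SE 0.08, adjusted p = 0.00039, edgeR). The gene lies on chromosome 6 at 124760053 to 124769673, minus strand. Eno1 was at 358 to 472 CPM with a log2 fold change of -0.07 (SE 0.09, adjusted p = 0.712).

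The 3 phosphofructokinase-1 genes, which encode the committed step, all had small positive estimates. Pfkl, the liver form, had a log2 fold change of 0.16 (SE 0.08, adjusted p = 0.265) and Pfkp, the platelet form, one of 0.08 (SE 0.08, adjusted p = 0.634). Pfkm, the muscle form that beta cells use for oscillating glycolysis, stood at 67.1, 69.2, 65.2 and 68.7 CPM with vehicle and at 69.9, 77.5 and 78.1 CPM with IL1B. Its groups did not overlap, by a margin of under 1 CPM, and its log2 fold change of 0.15 (SE 0.07) had an adjusted p of 0.201. None of these 3 passed the test.

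The remaining core enzymes did not pass the test. Pgk1, the first ATP-making kinase of the pathway, ranged from 490 to 672 and Gapdh, which makes NADH, from 392 to 591. Aldoa, the main aldolase, ranged from 384 to 516 CPM, Pgam1, the mutase, from 346 to 424 and Tpi1, the triose isomerase, from 308 to 424. Their groups overlapped, and the log2 fold changes of these 5 lay between -0.14 for Gapdh (SE 0.1, adjusted p = 0.417) and 0.06 for Pgk1 (SE 0.08, adjusted p = 0.758). Gpi1, the glucose phosphate isomerase, had a log2 fold change of -0.01 (SE 0.09), and Aldoc, the brain-type aldolase, was low at 7.09 to 13.1 CPM with one of -0.16 (SE 0.18). Gapdh shares at least 95% identity over part of its transcript with 36 other annotated genes, and Pgk1, Pgam1, Eno1, Ldha, Ldhb and Got2 with 1 to 3 each. The counts of all these genes may thus be split with pseudogene copies. Exons of Gpi1, Pfkm, Pfkp, Pdha1, Got2, Gpd1, Slc2a1, Gapdh, Mdh1 and Tpi1 overlap those of another annotated gene. Their counts are uncertain in that respect too. The 4 called genes have no such copy. Pyruvate kinase Pkm, the last step and not among the 37, was at 1162 ± 54.6 CPM (SD, n = 4) with vehicle and 1164 ± 49.8 CPM (SD, n = 3) with IL1B (log2 fold change 0.00, SE 0.05, adjusted p = 0.983).

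For Ldha and Slc16a3, genes of lactate production and export, no difference between the groups was larger than the spread within them. That spread was itself very wide. Lactate dehydrogenase A, which turns pyruvate into lactate, is the classic gene held low in beta cells. Ldha stood at 89.9, 75.6, 53.6 and 21.5 CPM in vehicle libraries 1 to 4 and at 119, 34.1 and 24.3 CPM in IL1B libraries 1 to 3, a 5.52-fold range over the 7 libraries. The groups overlapped widely, with IL1B library 1 above every other library and vehicle library 4 below every other. The means were 60.2 ± 29.8 CPM (SD, n = 4) and 59.1 ± 52.0 CPM (SD, n = 3), and the log2 fold change was -0.03 with an SE of 0.39 (adjusted p = 0.98). Slc16a3, the exporter that carries lactate out, stood at 21.6, 24.9, 24.5 and 9.47 CPM with vehicle and at 43.1, 10.3 and 9.95 CPM with IL1B, a 4.55-fold range. Its highest and lowest libraries were the same as for Ldha, and its log2 fold change was 0.1 with an SE of 0.36 (adjusted p = 0.92). Without IL1B library 1, Slc16a3 was lower with IL1B (log2 fold change -1.01, SE 0.27, adjusted p = 0.0237), Gapdh was lower (-0.3, adjusted p = 0.0434) and Ldha had a log2 fold change of -1.07 (adjusted p = 0.0569). The sign of both estimates turned with the libraries used: Ldha was positive without vehicle library 1 (0.24), vehicle library 2 (0.08), IL1B library 2 (0.25) or IL1B library 3 (0.34), and Slc16a3 was negative without vehicle library 4 (-0.12), none of which passed the test. Ldhb, the heart-type form, was low at 5.9 to 12.1 CPM (log2 fold change -0.41, SE 0.2, adjusted p = 0.228).

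Ldha and Slc16a3 were among the most variable genes of the data set within a treatment group. Over the 10902 genes with a mean of at least 5 CPM, the SD of log2 CPM within groups had a median of 0.115. It was 1.03 for Ldha, which ranked 8, and 0.896 for Slc16a3, which ranked 9. The next of the 37 were Aldoc at 0.289 (rank 314) and Ldhb at 0.278 (rank 376), while Hk1 was at 0.068 and Mdh1 at 0.037. Several abundant core enzymes also varied more than the median gene, among them Tpi1 at 0.215 (rank 1123), Gapdh at 0.201 (rank 1383) and Eno1 at 0.191 (rank 1626). Of the 33 members above the 5 CPM level, 15 were below the median of all genes and 18 above it.

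**Figure D3:**
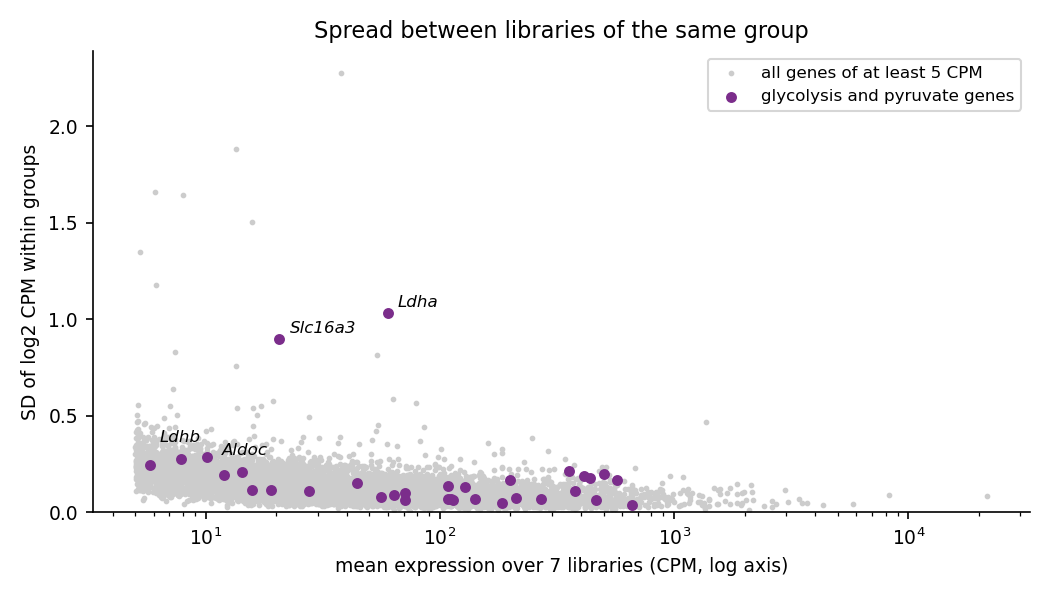
SD of log2 CPM within treatment groups (y axis) against mean CPM over 7 libraries (x axis, log scale) for all genes of at least 5 CPM in grey and the members of the glycolysis and pyruvate set above that level in purple. Ldha and Slc16a3 lie near 1 on the y axis, above nearly all genes of like expression, and the other purple points lie under 0.3.

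The order of the libraries seen for Ldha appeared in weaker form in other glycolytic genes, an observation made after the values were seen. IL1B library 1 was the highest of the IL1B libraries and vehicle library 4 the lowest of the vehicle libraries for 9 of the 37 genes (Slc16a3, Pfkl, Aldoa, Tpi1, Pgk1, Pgam1, Eno1, Ldha and Pdk1), or 24.3%, against 7.31% of all tested genes. Among the 12 core enzymes this held for 6. IL1B library 1 was the highest of its group for 21 of the 37, or 56.8%, including 10 of the 12 core enzymes, against 33.6% of all tested genes. Both the 9 and the 21 include Ldha and Slc16a3, whose values gave the order, so these genes fit it by selection. Of 12 tested hypoxia-inducible genes outside glycolysis, the double order held for 5 (Bnip3, P4ha1, Ddit4, Fam162a and Higd1a), or 41.7%, and not for the rest. Ndrg1 had the reverse order. Vehicle library 4 was its highest vehicle library (108.8 CPM), and IL1B library 1 its lowest IL1B library (102 CPM). Bnip3, a mitophagy receptor induced by hypoxia, stood at 58.8, 60.9, 50.8 and 38.8 CPM with vehicle and at 70.4, 42.9 and 37.3 CPM with IL1B. The second vehicle library, which stood apart, was the highest vehicle library for 20 of the 37, or 54.1%, against 30.9% of all tested genes.

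**Figure D4:**
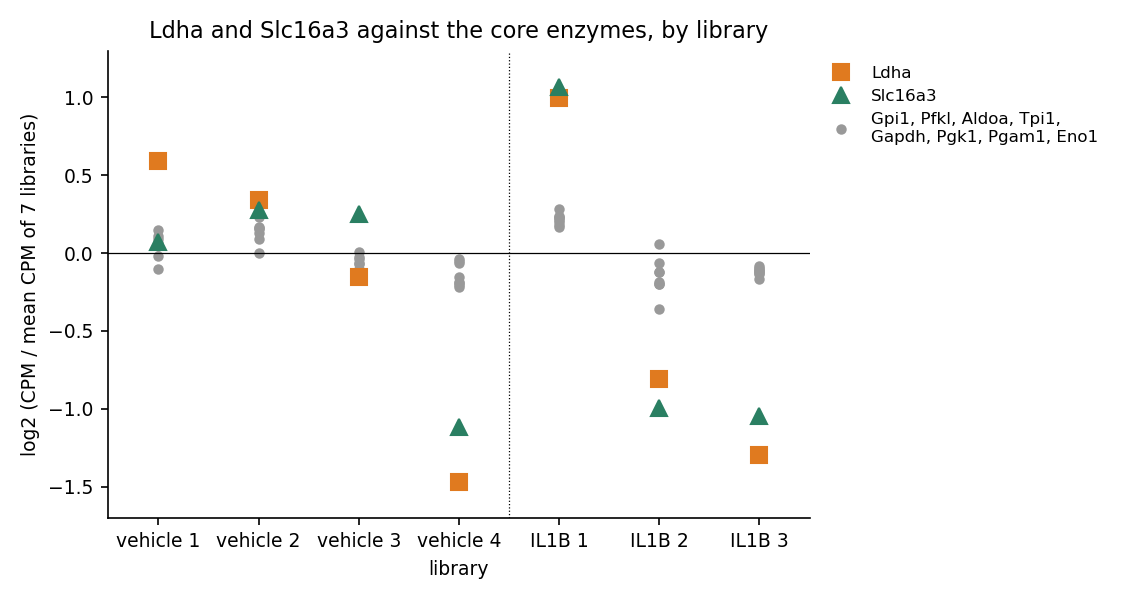
Log2 ratio of each library's CPM to the mean over 7 libraries (y axis) for Ldha, Slc16a3 and 8 core enzymes, by library (x axis). Ldha and Slc16a3 are highest in IL1B library 1 and lowest in vehicle library 4, and the 8 core enzymes (grey) shift less, with all 8 above their mean in IL1B library 1.

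Entry of pyruvate into mitochondria showed no called gene. The pyruvate dehydrogenase complex makes acetyl-CoA, and its kinases switch it off, so that both arms together set how much pyruvate is burnt. None of 7 genes passed the test, and their median log2 fold change was -0.01. Pdha1, the catalytic subunit, was at 174 to 190 CPM (log2 fold change 0.00, SE 0.06, adjusted p = 0.998), and Pdhb, its partner, was at 198 to 230 CPM (-0.01, SE 0.06). Dlat, the acetyltransferase core, had a log2 fold change of -0.1 (SE 0.08, adjusted p = 0.513). Among the kinases, Pdk3 stood at 27.5, 29.0, 31.2 and 29.7 CPM with vehicle and at 27.7, 22.3 and 24.97 CPM with IL1B, and its log2 fold change of -0.22 (SE 0.1) had an adjusted p of 0.175. Pdk1, a hypoxia-inducible kinase, was at 37.2 to 50.8 CPM (log2 fold change -0.17, SE 0.1, adjusted p = 0.307). Pdk2 was at 4.7 to 6.98 CPM (0.02, SE 0.2), and Pdk4, the starvation-induced kinase, had 62 counts over the 7 libraries (0.14, SE 0.45), which gives little precision.

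Pyruvate carboxylase, Pcx, refills the citrate cycle and is abundant in beta cells. It ranged from 133 to 151 CPM over the 7 libraries, and its log2 fold change of -0.02 had a small error (SE 0.06, adjusted p = 0.899). The mitochondrial pyruvate carrier genes Mpc1 and Mpc2, listed in the table under the older names Brp44l and Brp44, had log2 fold changes of -0.05 (SE 0.1, adjusted p = 0.82) and -0.01 (SE 0.09, adjusted p = 0.966).

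Of the 6 shuttle genes, 1 fell and 5 did not pass the test. The glycerol phosphate shuttle passes electrons of cytosolic NADH to the respiratory chain through Gpd1 in the cytosol and Gpd2 on the inner mitochondrial membrane, and islets are known for high activity of the latter. Gpd2 stood at 136, 119, 128 and 131 CPM in vehicle libraries 1 to 4 and at 93.0, 97.2 and 93.1 CPM in IL1B libraries 1 to 3. All IL1B libraries were below all vehicle libraries, and expression was 1.36-fold lower (log2 fold change -0.45, SE 0.06, adjusted p = 5.76e-05, edgeR). Gpd2 lies on chromosome 2 at 57237635 to 57370719, plus strand, and shares 487 exonic bases with the antisense gene A930012O16Rik, which has no row in the table and whose reads, again, cannot be told apart. Gpd1 was about as much lower but far less expressed, at 4.87, 5.64, 5.29 and 5.57 CPM with vehicle and 3.79, 4.49 and 3.21 CPM with IL1B. Its groups did not overlap, yet the log2 fold change of -0.47 had an SE of 0.21 and an adjusted p of 0.174.

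The malate-aspartate shuttle genes were steadier. Mdh1, the cytosolic malate dehydrogenase, was at 654 to 702 CPM with vehicle and 640 to 652 CPM with IL1B. Those ranges did not overlap, but the log2 fold change was only -0.05 (SE 0.05, adjusted p = 0.596). Mdh2, the mitochondrial form, had a log2 fold change of -0.04 (SE 0.06, adjusted p = 0.729). The aspartate aminotransferases differed in sign, with Got1 of the cytosol at 0.12 (SE 0.06, adjusted p = 0.302) and Got2 of mitochondria at -0.1 (SE 0.06, adjusted p = 0.339), and neither passed the test.

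Levels of isozymes were compared per kilobase of their longest annotated transcript, as each gene's share of the genes compared in its step. The PFKFB step held Pfkfb2, Pfkfb3 and Pfkfb4, and enolase held Eno1 and Eno2. Pfkfb1 and Eno3 were also tested but were left out of these shares. On this scale the levels in vehicle libraries were led by Mdh1 at 316, Pgk1 at 307 and Mdh2 at 291 CPM per kb. Hk1 stood at 20.2 CPM per kb with vehicle and 32.2 with IL1B. This order rests on the longest annotated transcript, which for Gapdh (159 CPM per kb with vehicle) is 3289 bases, and would change with the transcript used. The highest of each remaining role were Slc2a1 among transporters (6.22 CPM per kb), Pfkfb2 (16.8), Ldha (33.2) and Pdhb (88.9). Aldoa has no value here because its name covers more than 1 annotated model. Within a step, Pfkfb3 took 10.8% ± 2.11 (SD, n = 4) of the PFKFB step with vehicle and 20.7% ± 1.43 (SD, n = 3) with IL1B, and Pfkfb2 took 83.5% ± 2.46 and 73.1% ± 0.875, both without overlap. Eno2 took 7.87% ± 1.31 of enolase with vehicle and 10.8% ± 1.66 with IL1B, and those groups overlapped.

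In the other steps, the groups overlapped for every gene's share. The shares of lactate dehydrogenase and of the monocarboxylate transporters spread too widely between libraries to compare the groups. Ldha took 80.4% ± 10.6 (SD, n = 4) of lactate dehydrogenase with vehicle and 81.7% ± 9.46 (SD, n = 3) with IL1B, and single libraries ran from 64.9% to 92.4%. Slc16a3 ran from 34% to 76.3% of the 2 monocarboxylate transporters. The phosphofructokinases were spread over Pfkl (mean 42.2% with vehicle and 42.5% with IL1B), Pfkm (35.9% and 36.5%) and Pfkp (21.9% and 21%). Glucose transport was divided between Slc2a1 (42.6% and 41.5%), Slc2a2, the low-affinity transporter of mature mouse beta cells (43.5% and 44.8%), and Slc2a3 (14% and 13.7%). Among the kinases of pyruvate dehydrogenase, Pdk3 led (53.8% and 51.7%), then Pdk1 (34.8% in both groups), Pdk2 (9.9% and 11.5%) and Pdk4 (1.52% and 2%). Shares rest on the annotated transcript length, and which transcripts were expressed was not known. With the median length in its place, Slc16a3 took 82.5% with vehicle and 81.9% with IL1B.

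**Figure D5:**
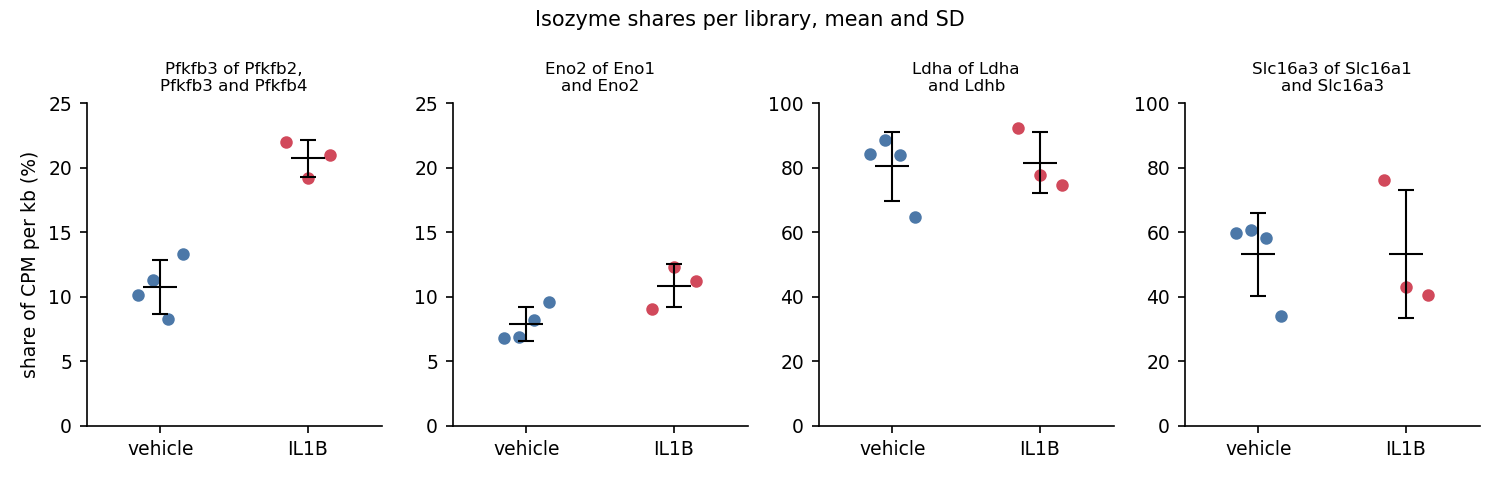
Share of CPM per kilobase among the genes compared in each enzyme or transport step, in single libraries, with mean and SD by group. The y axis is in percent from 0, with a range of 25% for Pfkfb3 and Eno2 and 100% for the others. The Pfkfb3 share is 8.31% to 13.3% with vehicle and 19.2% to 22% with IL1B, while the shares of Ldha and Slc16a3 spread widely within both groups.

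Around the 37 genes, 8 lists of neighbouring pathways held 127 further genes, of which 107 were tested. Of these, 8 rose and 5 fell, with a median log2 fold change of -0.03. The called share was 12.1%, near the 11.0% of all tested genes, and the counts by list below are parts of it. In other glycolysis and gluconeogenesis, 1 of 17 tested genes fell, Tigar, a phosphatase that removes the same activator PFKFB3 makes, listed under 9630033F20Rik (1.4-fold lower, log2 fold change -0.48, SE 0.08, adjusted p = 0.000154). For Slc2a2 the log2 fold change was -0.15 (SE 0.09, adjusted p = 0.343). In the pentose phosphate pathway, which makes NADPH, Pgd rose 1.36-fold (adjusted p = 7.05e-05) and H6pd, the enzyme of the endoplasmic reticulum, fell by 0.29 on the log2 scale (adjusted p = 0.00291), of 8 genes. Of 19 genes of pyruvate entry and cycling, Me1, the cytosolic malic enzyme, rose 1.34-fold (adjusted p = 0.000152) and Gpt2, the mitochondrial alanine aminotransferase, rose 1.23-fold (adjusted p = 0.0144). Leaving out IL1B library 2 or 3 ended the Gpt2 call, with adjusted p-values of 0.0607 and 0.0804.

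In the citrate cycle, 1 of 18 genes rose and 1 fell. Dlst, a subunit of the oxoglutarate dehydrogenase complex, rose 1.17-fold (adjusted p = 0.0117), or with an adjusted p of 0.0515 without IL1B library 1. Idh1, the cytosolic isocitrate dehydrogenase, fell by 0.23 on the log2 scale (adjusted p = 0.0211), and leaving out vehicle library 1 or 3 or any IL1B library gave 0.0553 to 0.0809. In glycogen metabolism, 1 of 16 tested genes fell, Ppp1r3b, a glycogen-targeting phosphatase subunit at 1.01 to 6.69 CPM (log2 fold change -0.92, SE 0.29, adjusted p = 0.04996). That call was lost with DESeq2 (adjusted p = 0.0541) and when vehicle library 1, 3 or 4 was left out, or IL1B library 2 or 3 (0.0603 to 0.235).

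Genes of the hypoxia response were read because several glycolytic genes are its targets. Among 8 genes of the hypoxia-inducible factor system, Egln3, an oxygen-sensing prolyl hydroxylase, rose 1.7-fold (log2 fold change 0.77, SE 0.11, adjusted p = 3.19e-05), and Hif1a itself did not pass the test (-0.2, SE 0.07, adjusted p = 0.0953), though it did without vehicle library 2 (adjusted p = 0.00424). Of 12 tested targets outside glycolysis, 2 rose and 10 did not pass. Ddit4, an inhibitor of mTOR signalling that also answers stress and glucocorticoids, stood at 16.1, 16.6, 15.9 and 14.9 CPM with vehicle and at 40.4, 39.4 and 36.6 CPM with IL1B, and rose 2.44-fold (adjusted p = 4.09e-09). Ankrd37 rose 1.95-fold at 1.59 to 4.08 CPM (adjusted p = 0.0174), but DESeq2 gave 0.0858, and leaving out vehicle library 3 or IL1B library 1 or 3 gave 0.0516 to 0.0682. Vegfa, Ndrg1 and Bnip3l had log2 fold changes of 0.01, 0.02 and -0.03. Of 9 tested genes that beta cells keep low, Cxcl12, a chemokine, rose 2.63-fold (adjusted p = 2.93e-07) and Maf, a transcription factor, fell by 0.51 on the log2 scale (adjusted p = 3.51e-05). Of the 15 beta cell markers, 12 did not pass the test, 1 rose and 2 fell. The called share was 20%, against 11.0% of all tested genes. Kcnj11, the pore of the beta cell's KATP channel, was higher (log2 fold change 0.57, SE 0.06, adjusted p = 5.7e-07). The transcription factors Pdx1 (-0.56, SE 0.06, adjusted p = 3e-07) and Mafa (-0.47, SE 0.06, adjusted p = 7.01e-06) were lower. Whether these changes bear on the glycolytic genes was not tested.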

How the data were processed

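PolyA RNA of 7 libraries was sequenced, and the authors deposited raw counts per gene symbol in 1 table. The submitters' processing notes name the mm10 build, STAR, RSEM, HOMER and DESeq2 among other tools, with no roles. Aligner and strand settings were not given there. The deposited counts were tested with edgeR 4.0.16 in R 4.3.3 (TMM scaling, filterByExpr, quasi-likelihood test between the 2 groups, Benjamini-Hochberg adjustment over 12480 genes, threshold 0.05). The procedure was also run on counts simulated from its own fitted dispersions. That run held no shifts of single libraries such as those described above, so it cannot show how they affect the calls. The SE is the log2 fold change divided by the root of F. Alternatives used other scalings and filters, DESeq2 1.42.0, limma 3.58.1 (voom) and left-out libraries. Gene models came from GENCODE M21 on GRCm38 (97.9% of symbols matched), copies from blastn 2.17.0. Total counts of 5335607 to 7513934 limit genes of a few CPM. IL1B libraries carry the table's own numbers.

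The 37 genes and all lists were chosen with earlier results of these data known. The text names each member, each called gene of the neighbouring lists, and always Slc2a2, Pkm, Mpc1, Mpc2 and Hif1a. Beta cell, other islet, leukocyte, stromal and exocrine markers were counted. Of the other islet markers, 4 of 10 were tested and Irx2 was lower with IL1B (log2 fold change -0.82, adjusted p = 0.00228). Bnip3, Vegfa, Ndrg1, Bnip3l, Kcnj11, Pdx1 and Mafa were named after their values were seen. An item withheld for evaluation is not reported here.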

Additional observations from a re-analysis of the deposited data

How the results depend on the processing

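Hk1, Pfkfb3, Eno2 and Gpd2 kept their direction and their call in all 16 alternatives, with log2 fold changes of 0.61 to 0.71, 0.82 to 1.02, 0.37 to 0.48 and -0.5 to -0.42. The number of the 37 genes that rose was 3 throughout. The number that fell was 1, and 2 with upper-quartile scaling, 2 with total-count scaling, 2 without replicate 2 of each group and 3 with the length and GC trend removed; it was 1 to 3 when single libraries were left out, with 2 without vehicle library 2 and 3 without IL1B library 1. Pfkfb2 was the added gene under both scalings (adjusted p = 0.0426 and 0.0449), without vehicle library 2 and without replicate 2 of each group (0.00277), and Got2 joined it with the length and GC trend removed (0.0328). Slc16a3 reversed without IL1B library 1 (log2 fold change -1.01; -1.01 to 0.42 over all libraries left out singly). Over all genes, 968 rose and 406 fell, against 844 and 556 with total-count scaling. Without replicate 2 of each group, 1171 rose and 676 fell. With the length and GC trend removed, 977 rose and 893 fell. Leaving out single libraries gave 769 to 1128 that rose and 252 to 589 that fell, the lowest without IL1B library 3. The cause was not tested. Hif1a passed with upper-quartile scaling (adjusted p = 0.0491) and with the length and GC trend removed (0.038). With the median transcript length, the Pfkfb3 share was 23.1% with IL1B, and the Slc16a3 share 82.5% and 81.9%. No paired analysis was possible because the table numbers the IL1B libraries 1 to 3 while the sample titles number them 1, 3 and 4, so the planned fit with a replicate block was not run. Hk2 and Pdk4, with 96 and 62 counts in all, were too shallow to show moderate differences.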

Other observations

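The spread between libraries of a group was also wide for Akr1b3 and Ass1, genes of metabolism outside the 37. Akr1b3, aldose reductase of the polyol branch off glucose, had a within-group SD of log2 CPM of 0.551 (rank 18), below that of Ldha and Slc16a3, and stood at 18.7, 18.6, 12.9 and 35.5 CPM in vehicle libraries 1 to 4 and at 10.5, 8.15 and 16.2 CPM in IL1B libraries 1 to 3. Its highest library was vehicle library 4, where Ldha was lowest, and its log2 fold change was -0.87 (SE 0.26, adjusted p = 0.0364). Ass1, which makes argininosuccinate from citrulline, had an SD of 1.64 (rank 4) and stood at 4.74, 5.64, 13.4 and 0 CPM with vehicle and at 12.7, 13.5 and 6.07 CPM with IL1B (log2 fold change 0.87, SE 0.45, adjusted p = 0.265). Both genes were chosen after their values were seen, and neither was searched for near-identical copies. The remaining genes ranked above Ldha were Gm7334, Rps27, Atp6v0c-ps2, Npcd, H2-Q9 and Gm5512.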
